A study of Mus musculus with 13 samples.

Results

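The semaphorin family of guidance cues and its receptors was followed across ESR1 (estrogen receptor α) ChIP-Seq peak lists from primary skeletal muscle fibroblasts. Members were the protein-coding genes of GENCODE vM21 (GRCm38, the assembly of mm10) named Sema, Plxn or Nrp with their class number and letter. This gave 31 of 21938 protein-coding genes: 20 semaphorins, 9 plexins and 2 neuropilins. A peak, which is a stretch of genome enriched in DNA recovered with the ESR1 antibody, was counted for a member when its summit lay in the gene body or within 10 kb of it. The windows of the 31 members did not overlap each other.

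All cells were LAM (lower abdominal muscle) fibroblasts of Aromhum mice, whose added human gene encodes aromatase, so every group shared this genotype. There were 4 treatments with 3 libraries each: vehicle (ethanol and DMSO), estradiol (E2) at 10 nM, fulvestrant at 100 nM, and both agents at these doses. Per the study's methods, fulvestrant or DMSO was given 3 h before E2 or ethanol, and cells were harvested 1 h after the latter. Fulvestrant is an ESR1 antagonist that also promotes loss of the receptor. E2 and fulvestrant were given at different doses and for different times, so their values stand side by side and the 2 agents were not tested against each other. The labels did not say whether the 3 libraries of a treatment came from separate animals or cultures, so each p-value measures the spread between these libraries, which may be technical.

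Semaphorins are secreted or membrane-bound proteins that steer axons, vessels and migrating cells. They signal through plexins, large transmembrane receptors, and the class 3 semaphorins generally need a neuropilin as co-receptor. Neuropilins also bind vascular endothelial growth factors, and in several cell types they have been tied to responses to several growth factors. ESR1 binds DNA at estrogen response elements (EREs), a short motif followed by its reverse complement after a 3 bp spacer, or through other factors such as AP-1.

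Each list held between 34293 and 104571 peaks. E2 replicate 1 and fulvestrant replicate 2 stood apart: 59.4% and 27.9% of their peaks were repeat-masked, against 5.57% to 7.79% in the other 10 libraries, and their relative depths, recovered from the background under the peaks, were 39.1% and 75.8% of the median library. Of 8 fibroblast markers, 4 had a promoter peak in all 12 libraries and the others in 6 to 11. Promoter peaks were found in at most 2 libraries at each of 5 myogenic and 4 endothelial markers and in at most 3 at each of 3 glial markers. Among 4 immune markers, 3 had none and Cd68 had one in 10 libraries. A peak is not a measure of RNA, so these values describe binding at marker genes only.

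The sequences on which the description turns were windows of 201 bp centred on the median summit of a region, where a region is the merged span of overlapping peaks over the 12 lists. They were read from the RefSeq copy of GRCm38, plus strand. Capitals mark matches on either strand to AP-1 (TGANTCA), TEAD (GGAATG) or RUNX (TGTGGT), and the nearest match to the ERE (GGTCANNNTGACC) where it had at most 2 mismatches. The first 4 windows came from intronic regions found in at least 5 of 6 libraries given E2 and at most 1 of the 6 not given it, which lay at Sema3a (chr5:13365228-13365428), Plxna4 (chr6:32166897-32167097), Sema5a (chr15:32609000-32609200) and Plxnc1 (chr10:94824400-94824600).
Sema3a intron: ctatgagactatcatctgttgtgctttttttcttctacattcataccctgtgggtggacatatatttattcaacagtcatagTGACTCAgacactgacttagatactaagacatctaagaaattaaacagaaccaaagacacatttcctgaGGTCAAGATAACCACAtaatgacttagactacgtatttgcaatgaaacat
Plxna4 intron: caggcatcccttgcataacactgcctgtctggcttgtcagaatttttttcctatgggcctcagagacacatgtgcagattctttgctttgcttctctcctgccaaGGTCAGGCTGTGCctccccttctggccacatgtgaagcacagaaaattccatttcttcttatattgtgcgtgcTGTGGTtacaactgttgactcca
Sema5a intron: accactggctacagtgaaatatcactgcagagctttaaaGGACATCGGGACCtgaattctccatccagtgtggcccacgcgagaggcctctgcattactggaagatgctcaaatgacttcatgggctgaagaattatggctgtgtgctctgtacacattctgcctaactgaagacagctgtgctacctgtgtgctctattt
Plxnc1 intron: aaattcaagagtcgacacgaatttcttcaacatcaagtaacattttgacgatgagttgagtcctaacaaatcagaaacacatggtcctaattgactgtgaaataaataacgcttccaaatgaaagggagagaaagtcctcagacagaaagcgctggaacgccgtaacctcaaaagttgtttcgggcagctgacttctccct

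The next 2 windows came from regions within 3 kb of a start site that were present in 3 of 3 E2 libraries and 0 of 3 libraries given E2 plus fulvestrant, at Plxnd1 (chr6:115996328-115996528) and Plxna1 (chr6:89355420-89355620). The last came from the Nrp2 promoter region shared by all 12 libraries (chr1:62705092-62705292).
Plxnd1 promoter: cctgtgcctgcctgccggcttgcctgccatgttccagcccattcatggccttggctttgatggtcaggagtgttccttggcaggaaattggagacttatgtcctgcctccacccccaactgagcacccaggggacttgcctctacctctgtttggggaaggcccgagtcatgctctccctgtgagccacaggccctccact
Plxna1 promoter: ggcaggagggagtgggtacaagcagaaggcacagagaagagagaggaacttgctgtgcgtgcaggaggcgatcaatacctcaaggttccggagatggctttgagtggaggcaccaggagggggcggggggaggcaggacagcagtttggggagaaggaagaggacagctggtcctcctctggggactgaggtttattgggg
Nrp2 promoter: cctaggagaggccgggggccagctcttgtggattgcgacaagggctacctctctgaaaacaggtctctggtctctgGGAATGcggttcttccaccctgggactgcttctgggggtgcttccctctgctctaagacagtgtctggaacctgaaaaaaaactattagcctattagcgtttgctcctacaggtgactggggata

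In the Sema3a window the ERE had 1 mismatch and was overlapped at its end by a RUNX match, and an AP-1 match lay on its other side. The best ERE matches at Plxna4 and Sema5a had 2 mismatches, and that at Plxnc1 had 4. Over all 228284 regions of the series, 9.02% had an ERE match with at most 2 mismatches within 100 bp of their summits. Neither the Plxnd1 nor the Plxna1 window held any of the letters searched, and the Nrp2 window held a TEAD match alone.

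ESR1 peaks were found at every member. The 31 genes had a peak in at least 3 of the 12 libraries each, and 18 of 31 (58.1%) had one in all 12, against 46.8% of all protein-coding genes. The mean number of peaks per gene over 12 libraries had a median of 3.83 over the members and 1.67 over all genes. The member windows were also longer, with a median of 60.2 kb against 37.4 kb, and per 100 kb the medians were 4.10 and 3.09 peaks. Density was highest at Plxnb2 (17.3 peaks per 100 kb), Sema4c (17.1) and Plxna1 (17.0), and lowest at Sema6d (0.85) and Sema3e (0.86).

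Among the secreted class 3 semaphorins, Sema3a held the most peaks. Sema3A is the founding repulsive cue of the class and binds neuropilin-1. Its window had 14, 3 and 12 peaks with vehicle, 8, 14 and 21 with E2, 8, 4 and 11 with fulvestrant, and 6, 9 and 20 with E2 plus fulvestrant in replicates 1, 2 and 3. The 4 treatments overlapped. Sema3b, which encodes a secreted protein studied as a tumour suppressor, had 1, 1 and 1 peaks with vehicle, 8, 4 and 6 with E2, 1, 8 and 3 with fulvestrant, and 0, 2 and 3 with E2 plus fulvestrant. Sema3f, whose product binds neuropilin-2, had 7, 3 and 2 peaks with vehicle, 12, 6 and 6 with E2, 1, 14 and 3 with fulvestrant, and 1, 2 and 4 with E2 plus fulvestrant. At both genes every E2 library lay above every library given E2 plus fulvestrant, and fulvestrant replicate 2 was the highest of its own treatment. Sema3g was near the bottom of the family, with 0 to 3 peaks per library and a mean of 1.25.

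The transmembrane semaphorins of classes 4 to 6 ranged from near 0 to among the highest counts in the family. Sema5a, which carries thrombospondin repeats outside the cell, held 19, 13 and 17 peaks with vehicle, 12, 34 and 31 with E2, 17, 9 and 19 with fulvestrant, and 15, 21 and 25 with E2 plus fulvestrant. E2 replicate 1 and fulvestrant replicate 2 were the 2 lowest of the 12 libraries at this gene, so the treatments overlapped. Sema4b, which encodes a class 4 membrane semaphorin, had 3, 5 and 1 peaks with vehicle, 9, 3 and 7 with E2, 2, 9 and 3 with fulvestrant, and 2, 0 and 1 with E2 plus fulvestrant. Sema4c, whose product is a ligand of plexin-B2, had 6, 4 and 4 with vehicle, 5, 6 and 7 with E2, 5, 10 and 4 with fulvestrant, and 2, 4 and 4 with E2 plus fulvestrant. At Sema4b and Sema4c the E2 libraries lay above those given E2 plus fulvestrant, and overlapped those given vehicle.

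The 2 class 6 genes that stood out were Sema6a and Sema6d, whose products bind class A plexins. Sema6d, the longest member, had 3, 1 and 2 peaks with vehicle, 11, 11 and 7 with E2, 5, 7 and 0 with fulvestrant, and 3, 6 and 5 with E2 plus fulvestrant. Sema6a had 2, 1 and 2 with vehicle, 8, 5 and 8 with E2, 1, 5 and 2 with fulvestrant, and 2, 3 and 7 with E2 plus fulvestrant. E2 lay above vehicle in all libraries at both genes, and above E2 plus fulvestrant at Sema6d only, although the difference between the 2 genes was not tested. Sema4a had 6 peaks in E2 replicate 1 and 0 or 1 in each other library, and Sema4f had 0 to 5 per library.

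Among the plexins, Plxna2 had the highest mean over 12 libraries. It had 16, 11 and 7 peaks with vehicle, 7, 18 and 17 with E2, 11, 11 and 9 with fulvestrant, and 8, 14 and 22 with E2 plus fulvestrant. Plxna1 had 9, 6 and 8 with vehicle, 11, 7 and 14 with E2, 6, 27 and 11 with fulvestrant, and 5, 14 and 17 with E2 plus fulvestrant. Both encode class A receptors that pair with neuropilins, and at both the treatments overlapped. Plxna4, which encodes another class A receptor, had 6, 4 and 2 with vehicle, 6, 10 and 10 with E2, 3, 12 and 4 with fulvestrant, and 3, 6 and 9 with E2 plus fulvestrant.

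The single class C and class D receptors had few peaks. Plxnc1, which encodes the receptor of Sema7A, had 2, 0 and 0 peaks with vehicle, 5, 3 and 3 with E2, 3, 4 and 2 with fulvestrant, and 2, 3 and 2 with E2 plus fulvestrant, so that E2 lay above vehicle. Plxnd1, which encodes the receptor of Sema3E and is best known from endothelial cells, had 0, 0 and 1 with vehicle, 9, 2 and 2 with E2, 0, 13 and 0 with fulvestrant, and 1, 1 and 0 with E2 plus fulvestrant. The counts of 9 and 13 belonged to E2 replicate 1 and fulvestrant replicate 2, and the other 10 libraries had 0 to 2. Plxnb1, which encodes the receptor of Sema4D, showed the same pair of libraries, with 5 and 4 peaks there and 0 or 1 in the rest. Plxnb3 had 0 to 2 peaks per library, and its E2 libraries held 0, 0 and 1.

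The 2 co-receptor genes ranked first and sixth in the family. Nrp2 had 25, 9 and 22 peaks with vehicle, 11, 25 and 36 with E2, 15, 23 and 21 with fulvestrant, and 15, 20 and 25 with E2 plus fulvestrant. Nrp1 had 13, 6 and 8 with vehicle, 5, 14 and 19 with E2, 8, 3 and 11 with fulvestrant, and 3, 11 and 16 with E2 plus fulvestrant. No pair of treatments separated at either gene, and E2 replicate 1 was below the other 2 E2 libraries at both. The difference in log2(peaks + 1) between E2 and E2 plus fulvestrant was 0.13 ± 0.45 (SE) at Nrp2 and 0.38 ± 0.60 at Nrp1, with adjusted p-values of 0.95 and 0.88 in limma.

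The other 11 members, Sema3c, Sema3d, Sema3e, Sema4d, Sema4g, Sema5b, Sema6b, Sema6c, Sema7a, Plxna3 and Plxnb2, had means over 12 libraries between 1.92 peaks (Sema6c) and 7.83 (Plxnb2). At none of them did E2 separate from vehicle or from E2 plus fulvestrant. Sema7a, the only semaphorin anchored in the membrane by a lipid, had 3, 2 and 1 peaks with vehicle, 3, 5 and 3 with E2, 0, 8 and 0 with fulvestrant, and 2, 4 and 3 with E2 plus fulvestrant.

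**Figure D1:**
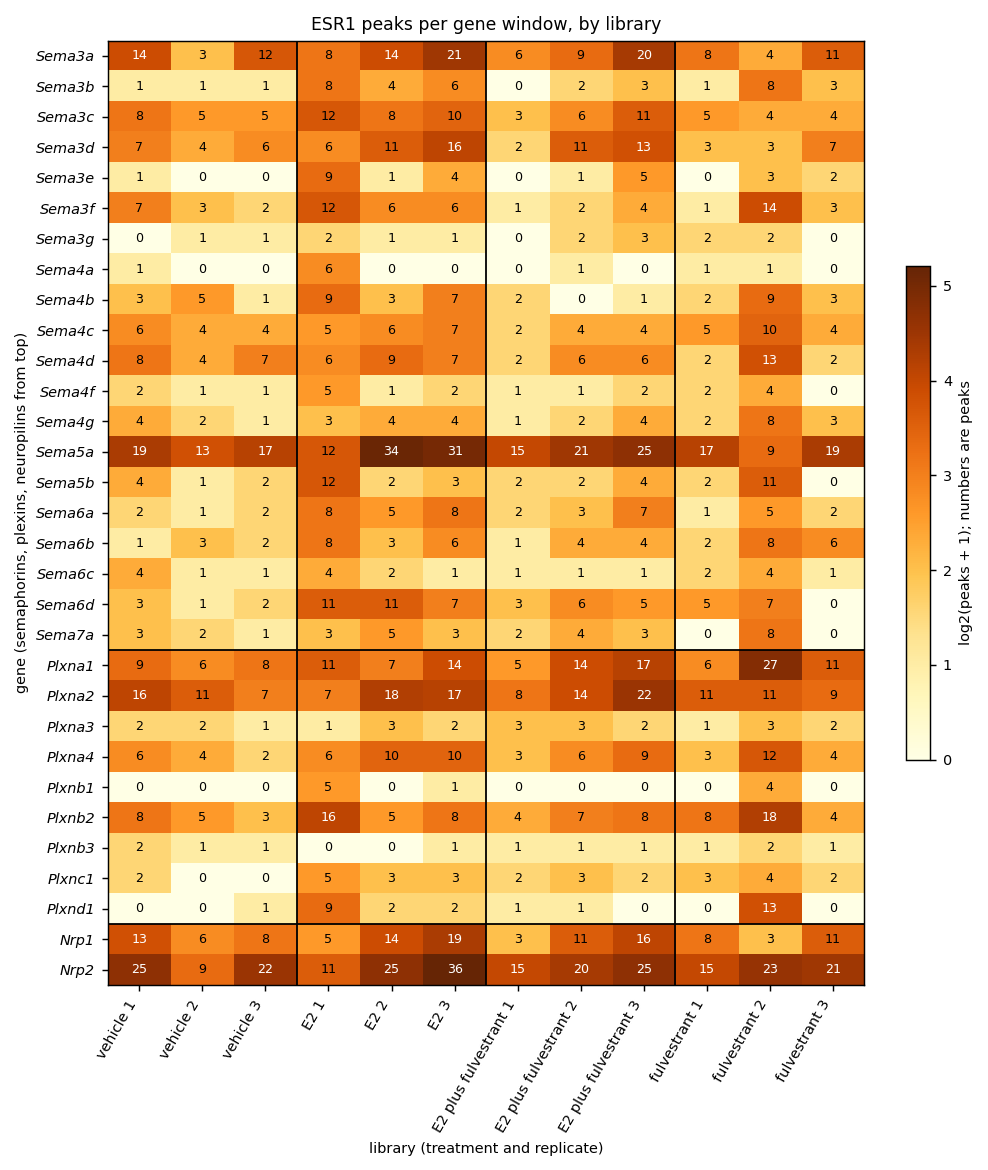
Peaks per member (rows) in each library (columns); the printed number is the count of peaks with a summit in the gene body or within 10 kb, and the colour is log2(peaks + 1). Nrp2 and Sema5a are dark in most libraries, while E2 replicate 1 and fulvestrant replicate 2 share high counts at Plxnd1 (9 and 13) and Sema3f (12 and 14).

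Whether E2 changed binding across the family, and whether fulvestrant removed that change, was first read from the summed counts. The 31 windows held 181, 99 and 121 peaks with vehicle, 225, 217 and 263 with E2, 119, 255 and 135 with fulvestrant, and 91, 168 and 227 with E2 plus fulvestrant. E2 lay above vehicle in all libraries and overlapped E2 plus fulvestrant. Of the member peaks in E2 replicate 1 and fulvestrant replicate 2, 28.9% and 9.80% were repeat-masked. The means were 134 ± 42.4 (SD, n = 3), 235 ± 24.6, 162 ± 68.2 and 170 ± 74.3 (ratio of E2 to vehicle 1.76, and of E2 to E2 plus fulvestrant 1.45). The whole lists changed by a similar ratio, 1.87 and 1.48, and the family held 0.315% ± 0.034, 0.318% ± 0.090, 0.298% ± 0.066 and 0.297% ± 0.018 of a list's peaks in the 4 treatments. Without E2 replicate 1 and fulvestrant replicate 2, the family's ratio of E2 to E2 plus fulvestrant was 1.48 and that of the lists 1.23, and for E2 to vehicle they were 1.80 and 1.55. Over the windows of all protein-coding genes the 2 ratios were then 1.18 and 1.41. E2 replicate 1 had the lowest share of its list, 0.215%, against 0.356% and 0.381% in the other 2 E2 libraries. With all lists shortened to their strongest 34293 peaks, the family's ratio was 1.02 for E2 to E2 plus fulvestrant and 0.94 for E2 to vehicle, so the latter turned direction.

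By family, semaphorin windows summed to 149, 130 and 150 peaks with E2, to 98, 55 and 68 with vehicle, and to 46, 88 and 125 with E2 plus fulvestrant. The E2 libraries lay above all 6 of those. Plexin windows summed to 60, 48 and 58 with E2, to 45, 29 and 23 with vehicle, and to 27, 49 and 61 with E2 plus fulvestrant. The plexin sums with E2 thus lay above those with vehicle and overlapped those with E2 plus fulvestrant. Neuropilin windows summed to 16, 39 and 55 with E2, to 38, 15 and 30 with vehicle, and to 18, 31 and 41 with E2 plus fulvestrant, which all overlapped. Whether the ligands differed from the receptors in this was not tested.

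**Figure D2:**
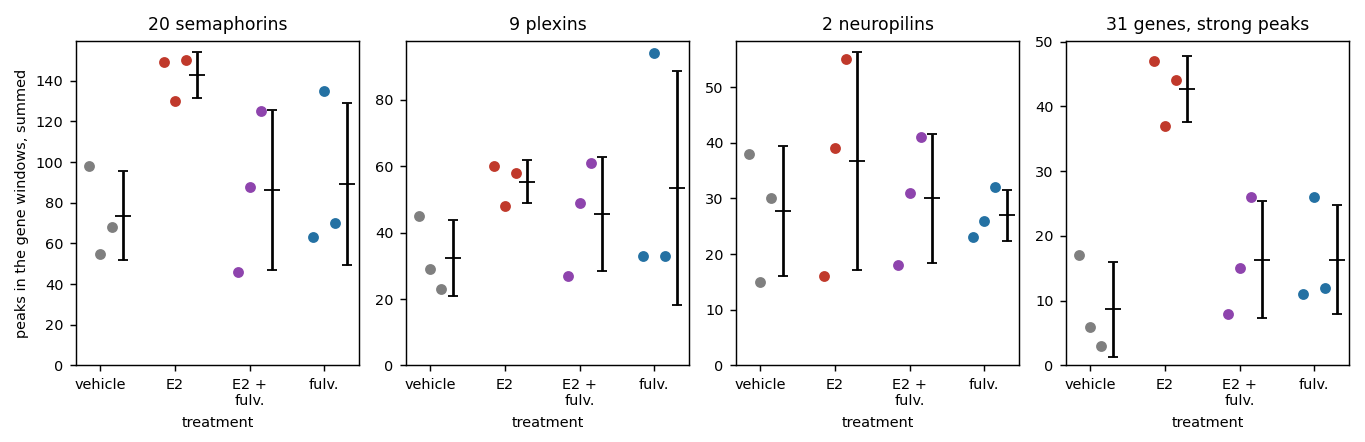
Summed peaks in the member windows by treatment; points are the 3 libraries in replicate order, and the bar beside them is the mean with its SD. Semaphorin sums with E2 (130 to 150) lie above those with vehicle (55 to 98), and in the panel of strong peaks (−log10 q of 10 or more) the E2 libraries hold 37 to 47 against 8 to 26 with E2 plus fulvestrant and 3 to 17 with vehicle.

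Gene by gene, no member passed the test on peaks per gene. In limma over 15907 genes with Benjamini-Hochberg adjustment, 0 of 31 members were called in E2 against E2 plus fulvestrant, where 0.0% of all genes were called in either direction, and 3 members had an unadjusted p under 0.05, all higher with E2. These were Sema4b (log2 difference 1.91 ± 0.57 (SE), adjusted p 0.77), Sema3b (1.57 ± 0.56, adjusted p 0.77) and Sema3f (1.47 ± 0.65, adjusted p 0.77). In E2 against vehicle 0 members were called, 0.00629% of all genes were called higher, and 6 members were higher and 1 lower at an unadjusted p under 0.05. Plxnc1 led with 1.67 ± 0.42 (adjusted p 0.25 in limma), followed by Sema6a with 1.58 ± 0.45 (adjusted p 0.28), and Plxnb3 was the lower one with -0.86 ± 0.36 (adjusted p 0.37). The unadjusted counts in these 2 contrasts were not set beside those of all genes, so they are no result about the family. Fulvestrant against vehicle, E2 plus fulvestrant against fulvestrant, the 6 libraries given E2 against the 6 not given it, and the interaction gave 0 called members in limma, where 0.0% of all genes were called in the first 3 and 1 of 15907 in the interaction. Under an unadjusted p of 0.05 stood 1 member higher, 1 lower, 3 higher and 4 higher, beside 780, 260, 944 and 1445 of all genes in the same directions. The exact permutation test per gene also called 0 members, where its smallest p is 0.1 with 3 libraries against 3 and 0.00216 with 6 against 6.

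A plainer reading counted members whose libraries did not overlap. Every E2 library was above every library given E2 plus fulvestrant at 6 of 31 members (19.4%), Sema3b, Sema3f, Sema4b, Sema4c, Sema6d and Plxnd1, and none was below. The same held for 5.07% of the 15907 genes, and for 0.817% in the opposite direction. Against vehicle, E2 was above in all libraries at 5 members (16.1%), Sema3b, Sema6a, Sema6d, Plxnc1 and Plxnd1, where 10.8% of all genes were, and below at none, where 0.585% were. Fulvestrant against vehicle separated 0 members in either direction, where 3.62% of all genes were higher and 0.484% lower, and E2 plus fulvestrant against fulvestrant 0, where 1.65% were higher and 1.52% lower. The 6 libraries given E2 against the rest also separated 0, where 0.176% were higher and 0.0126% lower. Each separated comparison of 3 against 3 had an exact two-sided permutation p of 0.1, the smallest possible. Without E2 replicate 1 the counts were 9 and 10 members, where 9.67% and 19.2% of all genes were. The count against vehicle was 11 without E2 replicate 2 and 12 without vehicle replicate 1, where 20.4% and 22.3% of all genes were. With all lists shortened to their strongest 34293 peaks, 0 members were higher with E2 in both comparisons, where 1.49% and 1.68% of genes were, and 2 were lower with E2 than with vehicle, where 804 of 14563 genes were.

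With all libraries, the family's median lay above that of all genes in each of the 5 contrasts. The 2 sets were unlike in count, with a median of 3.83 peaks per member and 1.67 over all protein-coding genes. Adding 1 before the log shrinks a difference more at low counts, and the part of this was not tested. The median difference in log2(peaks + 1) between E2 and E2 plus fulvestrant was 0.58 over the 31 members and 0.20 over all genes tested, and 26 members had a higher mean with E2. For E2 against vehicle the medians were 0.66 and 0.38, with 30 members higher and Plxnb3 the exception. Fulvestrant against vehicle gave 0.31 and 0.26, E2 plus fulvestrant against fulvestrant 0.00 and -0.11, and the 6 libraries given E2 against the 6 not given it gave 0.31 and 0.13. Without E2 replicate 1 and fulvestrant replicate 2 the medians were 0.52 and 0.17 for E2 against E2 plus fulvestrant, 0.65 and 0.33 for E2 against vehicle, and -0.07 and 0.03 for fulvestrant against vehicle. E2 against vehicle and fulvestrant against vehicle share the vehicle libraries, and E2 against vehicle shares the E2 libraries with E2 against E2 plus fulvestrant.

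**Figure D3:**
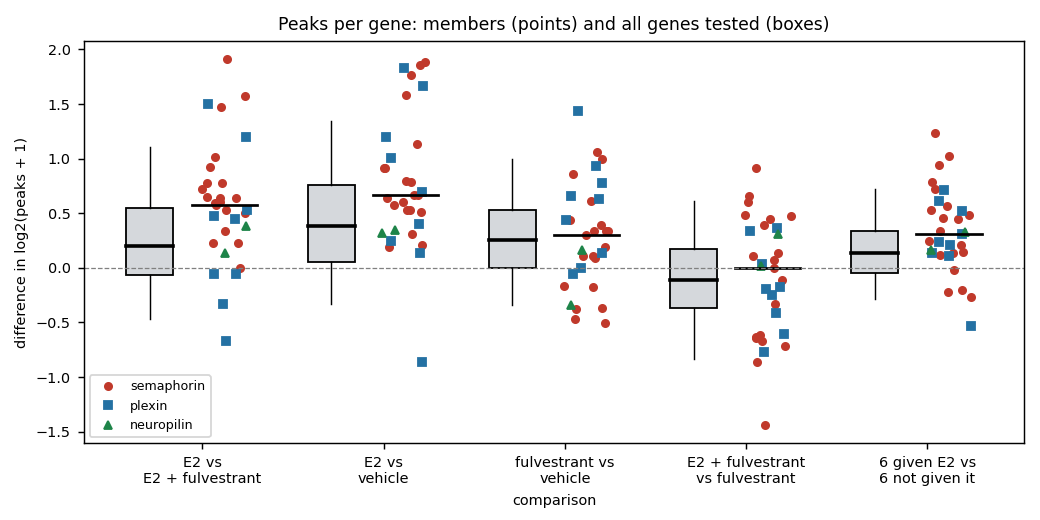
Differences in log2(peaks + 1) per member (points, with a line at their median) beside all 15907 genes tested (box, quartiles; whiskers, 5th and 95th percentiles; thick line, median) in 5 comparisons. The member median is 0.58 against 0.20 for all genes in E2 against E2 plus fulvestrant, and no point passed the adjusted test.

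Strong peaks gave a clearer separation. Strong meant a −log10 q of 10 or more. The 31 windows then held 17, 6 and 3 peaks with vehicle, 47, 37 and 44 with E2, 11, 26 and 12 with fulvestrant, and 8, 15 and 26 with E2 plus fulvestrant. Each E2 library was above each library given vehicle or E2 plus fulvestrant. The lists themselves moved in the same way, with 13945 to 21472 strong peaks with E2 and 3076 to 11019 in the other treatments. At this threshold Nrp2 had 2, 6 and 7 peaks with E2, 1, 1 and 0 with vehicle, 1, 2 and 3 with E2 plus fulvestrant, and 1, 2 and 1 with fulvestrant. Sema3d, which encodes a class 3 ligand, had 2, 5 and 4 strong peaks in the E2 libraries, 0, 2 and 5 in those given E2 plus fulvestrant, and 0 in all 6 libraries not given E2. Strong peaks at Sema3d were thus seen in all 3 E2 libraries and in 2 of 3 given E2 plus fulvestrant.

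The filter kept 18 of the 31 members at this threshold, and a member that passed it only through libraries where it was high had to differ. This holds for Sema5b, with 3, 1 and 1 strong peaks with E2 and 0 in the other 9 libraries, for Sema3d, and for Sema4d, with 1 in each E2 library and in fulvestrant replicate 2 and 0 in the other 8. Their calls are given for completeness and support nothing. Limma called Plxna1, Plxna2, Sema4d and Sema5b higher with E2 than with E2 plus fulvestrant, where 6.49% of 10488 genes were called, and none lower, where 0.0191% were. It called Nrp2, Plxna1, Sema3a, Sema3d, Sema4d, Sema5a and Sema5b higher with E2 than with vehicle, where 12.6% were, and none lower, where 0.0191% were. Sema3d was called in the 6 libraries given E2 against the rest, where 2.88% of genes were called higher and 0.0191% lower. The difference at Nrp2 was 1.80 ± 0.44 (SE, adjusted p 0.028 in limma) and at Plxna1 1.39 ± 0.33 (adjusted p 0.026). Without E2 replicate 1 and fulvestrant replicate 2, Nrp2 (2.24 ± 0.39, adjusted p 0.013 in limma), Sema4d and Sema5b were called against vehicle, where 14.0% of genes were called higher and 0.0286% lower. Sema4d and Sema5b were called against E2 plus fulvestrant as well, where 5.22% were called higher and 0.0667% lower. The same 3 genes were called in the libraries given E2 against the rest, where 6.83% of genes were called higher and 0.0667% lower.

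The 12 lists merged into 669 regions in member windows, of 228284 in the series. Of these 58.3% were found in 1 library only, against 64.2% of all regions, and 86 (12.9%) were found in at least 6 libraries, against 12.8%. All 12 libraries shared 16 member regions (2.39%, against 3.42% of all). Promoter regions made up 12.9% of the 669, 26.7% of the 86 and 62.5% of the 16, and introns 65.6%, 54.7% and 31.3%.

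The 16 shared regions lay at ligand, receptor and co-receptor genes alike. The strongest by its rank among a list's peaks was the Sema4c promoter region (chr1:36555488-36558422, summit 510 bp downstream of a start site), with a median rank of 1355 and a best of 741. The Nrp1 (median rank 2596) and Nrp2 (2700) promoter regions came next, followed by those of Plxna3, Sema5a, Sema3c, Plxna1, Plxna2, Plxnb2 and Sema3a. The Sema3a region lay at an internal start site of the gene, 137 bp downstream of it. Nrp2 had a further pair of shared intronic regions, 17987 and 73808 bp from its start site, and Plxna1, Sema3f and Sema4d had 1 each. The last shared region was counted for Sema4g but lay 113 bp from the start site of Mrpl43. Fold enrichment at the Nrp1 promoter was 4.14, 4.20 and 2.79 with vehicle, 17.4, 5.16 and 8.79 with E2, 4.34, 8.37 and 5.27 with fulvestrant, and 5.42, 4.29 and 4.35 with E2 plus fulvestrant. In these values, which were not normalised, E2 replicate 1 was the highest of the 12 libraries, as it was at 8 of the 10 shared promoter regions. The median fold enrichment over its whole list was 4.15, against 2.82 to 3.17 in the other lists. After the quantile normalisation described below, the log2 value at the Nrp1 promoter was 2.71 in E2 replicate 1 and 2.85 in E2 replicate 3.

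**Figure D4:**
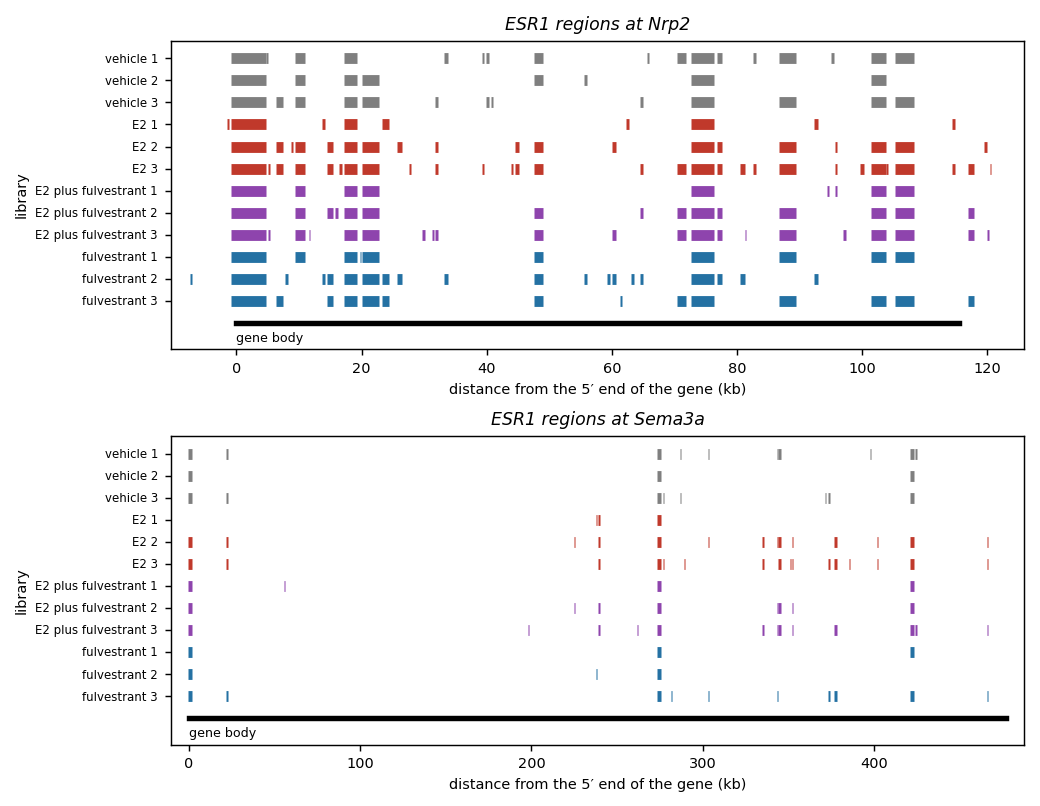
Regions along Nrp2 (top) and Sema3a (bottom) in each library, by distance from the 5′ end of the gene; each bar is the merged span of a region in which that library had a peak, and the black line is the gene body. The promoter region of Nrp2 is present in all 12 libraries, and at Sema3a the region found in 5 of 6 libraries given E2 is absent from the 6 libraries not given it.

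No member region present in all 12 libraries passed the test on its strength. After quantile normalisation of log2 fold enrichment over the 7816 shared regions, limma called 0 of the 16 member regions in every contrast. In E2 against E2 plus fulvestrant 0.0% of regions were called higher and 0.0128% lower, and 0.345% were higher in the 6 libraries given E2. The lowest unadjusted p was at the Sema4d intron region (chr13:51747887-51751138). Sema4D is a membrane semaphorin also known from lymphocytes. Its normalised log2 values there were 2.12, 1.78 and 1.53 with vehicle, 1.84, 1.72 and 1.97 with E2, 1.48, 1.60 and 1.70 with fulvestrant, and 1.27, 0.95 and 1.21 with E2 plus fulvestrant. The E2 plus fulvestrant libraries were the 3 lowest of the 12, and the difference of 0.70 ± 0.21 (SE) had an adjusted p of 0.92 in limma. Over the contrasts, 1, 1, 0, 2, 0 and 0 of the 16 member regions had an unadjusted p under 0.05 in limma. No count over all shared regions was set beside these, so they are no result about the members.

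Presence of a region separated the treatments at few places. Found in 3 of 3 E2 libraries and 0 of 3 given E2 plus fulvestrant were 5 member regions (0.747% of 669), where 0.207% of all regions were, and none showed the opposite, where 0.0732% did. They were the promoter regions of Plxna4 (chr6:32586956-32588677), Plxna1 (chr6:89355024-89356085), Plxnd1 (chr6:115996151-115996679) and Sema6a, and a region downstream of Sema4b (chr7:80232187-80233478) that lay 72 bp from the start site of Cib1. The first 4 were also absent from vehicle. With the Sema3a intron region (chr5:13364472-13365556) this gave 5 member regions in E2 and not vehicle, where 0.344% of all regions were, and none in vehicle and not E2, where 0.0162% were.

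The 5 regions lost with E2 plus fulvestrant were weak in E2 replicates 2 and 3. Fold enrichment with E2 was 6.66, 2.91 and 2.75 at the Plxna4 promoter, and 4.77, 2.19 and 3.06 at Plxnd1. It was 7.41, 2.12 and 3.16 at the Sema4b region. By fold enrichment E2 replicate 1 was the highest of the 3 at each of the 5, in a list whose median was 4.15, against 3.15 and 3.17. By rank within its list it was the highest at 4 of the 5. The Plxna1 region stood lowest in it, at rank 78841, against 41557 and 49280 in E2 replicates 2 and 3. In fulvestrant replicate 2, 4 of the 5 regions were also present, as were 79.7% of the 473 regions of the series that met the rule. Leaving out E2 replicate 1, the count was 14 member regions (2.09%), where 1.51% of all regions met the rule, and with lists shortened to the strongest 34293 peaks it was 1. The part of E2 replicate 1 and fulvestrant replicate 2 in the result was not tested.

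Some regions were looked for by a rule that asks for presence with E2 both with and without fulvestrant. At least 5 of the 6 libraries given E2 and at most 1 of the 6 not given it held 4 member regions (0.598%), where 0.465% of all regions met this rule, which was chosen after the values were seen. The member share is close to that of all regions. None met it in the opposite direction, where 0.0105% did. The Sema3a intron region was present in all 3 E2 libraries, with fold enrichments of 4.98, 4.51 and 6.32, and in E2 plus fulvestrant replicates 2 and 3, with 4.05 and 4.17. The Plxna4 intron region (chr6:32166675-32167274) was present in E2 replicates 2 and 3, with 7.03 and 3.13, and in the 3 libraries given E2 plus fulvestrant, with 4.48, 6.33 and 6.16. Both were absent from all 6 libraries not given E2.

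The Plxnc1 intron region (chr10:94824291-94825204) had fold enrichments of 6.55 and 6.17 in E2 replicates 2 and 3, 3.60, 4.37 and 5.30 with E2 plus fulvestrant, and 3.04 in fulvestrant replicate 1. The Sema5a intron region (chr15:32608522-32609318) had 3.12 and 4.61 in E2 replicates 2 and 3, 2.90, 3.05 and 4.05 with E2 plus fulvestrant, and 2.92 in fulvestrant replicate 3. At Plxnc1 the value in fulvestrant replicate 1 was below those of the 5 libraries given E2, and at Sema5a the value in fulvestrant replicate 3 lay within their range. E2 replicate 1, of low depth, lacked 3 of the 4 regions, as it lacked 82.4% of the 1061 regions of the series that met the rule. An ERE match with at most 2 mismatches stood in 3 of these 4 windows and in 33.5% of the 1061.

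**Figure D5:**
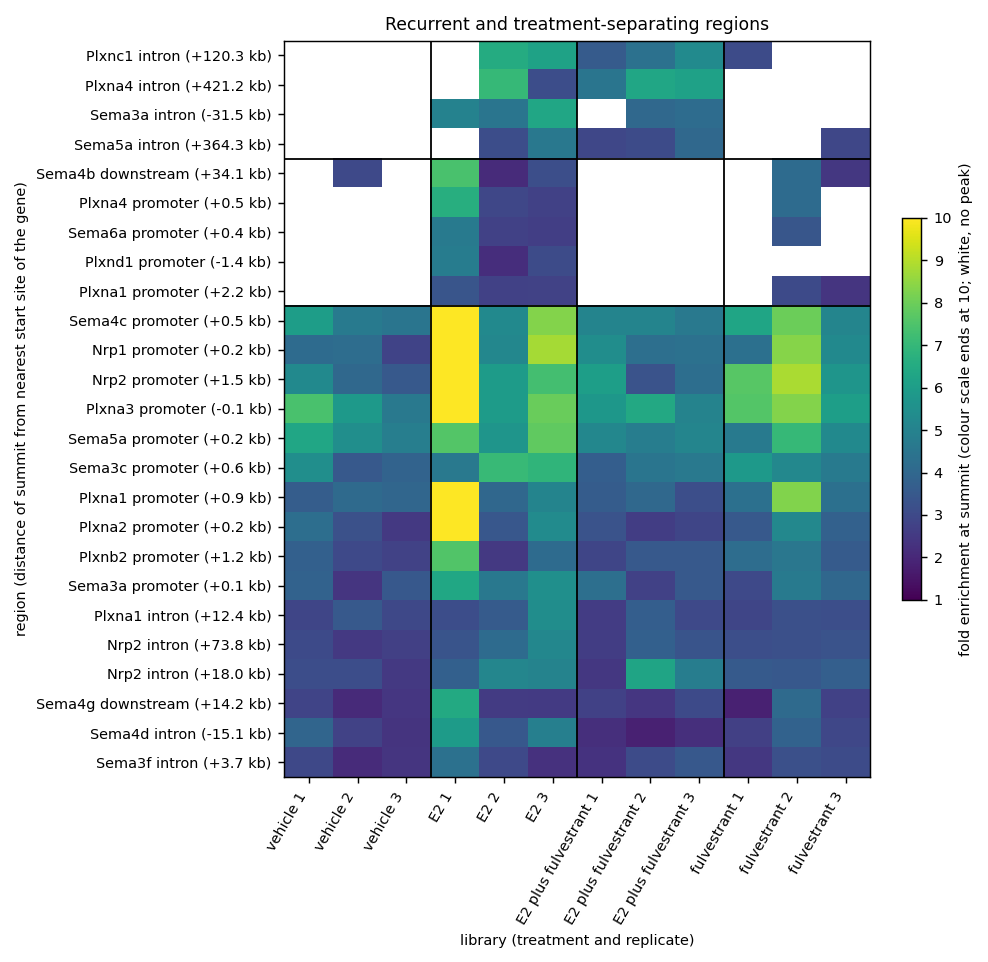
Fold enrichment in each library (columns) at member regions (rows) present in at least 5 of 6 libraries given E2 and at most 1 of 6 not given it (top block), present in 3 of 3 E2 libraries and absent from vehicle or from E2 plus fulvestrant (middle), and present in all 12 libraries (bottom); white means no peak, and the colour scale ends at 10. The top block is filled in 5 of 6 libraries given E2 at each region, and the middle block with E2 and, at 4 of 5 regions, in fulvestrant replicate 2. In the middle block the Plxna1 and Sema4b regions are also filled in fulvestrant replicate 3, and the Sema4b region in vehicle replicate 2.

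Motif content at the members was close to that of the series. At 7 of 669 member regions (1.05%) more than 50% of the libraries' own summits had an ERE with at most 1 mismatch within 100 bp, against 1.21% of all regions, and these lay at Sema6d (2), Sema3a, Sema3b, Sema3c, Sema4g and Sema7a. The Sema3a region was the only one of the 7 found in more than 1 library. Among the 86 member regions found in at least 6 libraries 0 had an ERE, where 2.83% of all such regions did. AP-1 matches stood in 4.78% of member regions and 4.86% of all, TEAD matches in 8.37% and 9.16%, and RUNX matches in 10.6% and 11.9%.

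Other genes of semaphorin signalling were read from a list of 50, which holds intracellular mediators such as the CRMP and MICAL proteins, and co-receptors. Of these 45 had peaks in at least 3 libraries and were tested, and 0 were called by limma in either direction in any of the 5 contrasts, with 4, 7, 4, 0 and 4 at an unadjusted p under 0.05. Those unadjusted counts were not set beside the counts of all genes, so they are no result about the list. E2 lay above E2 plus fulvestrant in all libraries at Cntn2, Itga1 and Pgf and below it at Kdr (3 and 1 of 45 genes, where 5.07% and 0.817% of all genes were). Cntn2 and Pgf passed the filter on libraries only through the E2 libraries, where they were high, so their separation supports nothing. Cntn2 had 1 peak in each E2 library and 0 in each given E2 plus fulvestrant. Kdr encodes a receptor of vascular endothelial growth factor that partners with neuropilins. Kdr had 1.67 ± 0.58 peaks (SD, n = 3) with E2 and 3 in each library given E2 plus fulvestrant. E2 lay above vehicle in all libraries at Nrcam and Vegfc (2 of 45, where 10.8% of all genes were). Fulvestrant alone lay above vehicle at 7 of 45, namely Cd72, Farp1, Fes, Gipc1, Mical3, Nrcam and Vegfc, where 3.62% of all genes were. Nrcam, an adhesion molecule found in neuropilin complexes and singled out here once its values were known, had 5.33 ± 2.08 peaks with E2, 2.33 ± 2.31 with fulvestrant, and 0 in all 3 vehicle libraries. Its log2 difference between E2 and vehicle was 2.60 ± 0.48 (SE, adjusted p 0.18 in limma).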

How the data were processed

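ESR1 ChIP-Seq was read from 12 peak lists, 1 per library; the input sample was not analysed here. As the submitters' processing notes and the methods have it, reads were trimmed (Trimmomatic 0.39), aligned (Bowtie2, mm10) and cleared of duplicates (Picard 2.21.4) before the authors ran MACS2. Fold enrichment in the deposited lists is a ratio over local background. The −log10 p and −log10 q values, from p-values and q-values within a list, were also made by the authors, as was the deposited score, which was not used. A p-value limit had set the lists where the design of the tests assumed a q-value, so all deposited peaks were used and a q-value limit was an alternative. Read totals were not part of the lists, so depth was known only relative to the median library.

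Peaks were assigned by summit to gene bodies and 10 kb on each side (GENCODE vM21). Peaks per gene were compared as log2(peaks + 1) with limma 3.58.1 (R 4.3.3), with an intensity trend and Benjamini-Hochberg adjustment, over genes with a peak in at least 3 libraries. Single values were tested with exact permutation tests. Peaks overlapping by at least 1 bp were merged into regions. Motif matches counted 100 bp on each side of summits. The scripts were tested on simulated data. Members, lists and tests were chosen with earlier results of these data known. Genes described by library were any called on all peaks, the 5 with the most and the 5 with the fewest peaks, those without overlap between E2 and a comparison group, those with a separating region, and both neuropilins. Sema7a was added after its values were seen, as the only class 7 member. Sequence windows overlapping a UTR or on chromosome 18 were left out. Alternatives changed the peak threshold, the window, the filter, the pseudocount, the region rule, the libraries used and the normalisation.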

Additional observations from a re-analysis of the deposited data

Results flagged for a closer look

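The summed plexin windows held 94 peaks in fulvestrant replicate 2, against 23 to 45 in the other 5 libraries not given E2, and its gap to the nearest of them was 0.69 of the range of the 6. Of the 10 sets of 6 libraries examined in this way (family, semaphorin, plexin and neuropilin sums and the share of the list, each with and without E2), this was the only one past Dixon's critical value, and chance marks about 1 set in 20. In this library 27.9% of all peaks were repeat-masked, and 9.80% of those in member windows. The plexins with the highest counts in it were Plxna1 (27 peaks), Plxnb2 (18) and Plxnd1 (13). No member passed the interaction test of the effect of E2 with and without fulvestrant when all peaks were used.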

How the results depend on the processing

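Leaving out 1 library at a time, the ratio of family sums lay between 1.19 and 1.81 for E2 to E2 plus fulvestrant, 1.56 and 2.14 for E2 to vehicle, 0.95 and 1.54 for fulvestrant to vehicle, 0.76 and 1.28 for E2 plus fulvestrant to fulvestrant, and 1.22 and 1.52 for libraries given E2 to the rest. No member or member region was called by limma in any of these fits (0 to 0). Members without overlap numbered 6 to 9 (E2 above E2 plus fulvestrant) and 5 to 12 (E2 above vehicle), the last without vehicle replicate 1. Over all genes the shares were 6.41% to 14.4% and 12.6% to 22.3%. Separating regions numbered 5 to 14 (E2, not E2 plus fulvestrant), 0 to 5 (the opposite), 6 to 29 (E2, not vehicle) and 0 to 4 (the opposite). Without E2 replicate 1 they were 14 and 29 (2.09% and 4.33% of member regions), where 1.51% and 3.25% of all regions were. Without E2 replicate 2 they were 8 and 13, where 1442 and 1908 of all 228284 were. The opposite counts of 5 and 4 came without E2 plus fulvestrant replicate 1 and vehicle replicate 2, where 1205 and 333 of all were.

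Limited to peaks with −log10 q at or above 10, the ratios of sums were 2.61 (E2 to E2 plus fulvestrant), 4.92 (E2 to vehicle) and 2.36 (given E2 to the rest). In those contrasts 4, 7 and 1 members were called, where 6.49%, 12.6% and 2.88% of genes were called higher. The family's share of a list's strong peaks overlapped between the treatments. It was 0.219%, 0.265% and 0.243% with E2, and 0.137%, 0.190% and 0.259% with E2 plus fulvestrant. With vehicle it was 0.243%, 0.151% and 0.0975%, and with fulvestrant 0.147%, 0.236% and 0.201%. The interaction called 3, where 923 of 10488 genes were called higher and 4 lower. The calls of Sema3d, Sema4d and Sema5b among these support nothing, as given above. For given E2 against the rest, Sema3d was the only one. Separating regions were 2 and 2 of 91 member regions, where 885 and 1140 of all 34274 regions were. At 8 members E2 lay above vehicle, where it did at 21.3% of the 10488 genes. The 8 include Sema3d, Sema4d and Sema5b, whose separation supports nothing for the same reason. Chosen after seeing the data, that threshold without E2 replicate 1 and fulvestrant replicate 2 gave 2, 3 and 3 called members. These belong to the same 3 contrasts, where 5.22%, 14.0% and 6.83% of genes were called higher. Sema4d and Sema5b were among them each time, and their calls support nothing. The interaction called 2 members, and no count over all genes was set beside it, so this is no result about the family. With lists cut to the shortest, E2 to vehicle was 0.94, and 0 members had E2 above either group, where 1.49% and 1.68% of genes did. Separating regions were then 1 and 0 of 309 member regions, where 199 and 221 of all 101469 regions were. Presence in at least 2 of 3 libraries gave 18, 5, 38 and 4 of 669 regions, where 4868, 1679, 9059 and 627 of all 228284 met the rule. Summit-based regions gave 2 and 1 of 963 for E2 against E2 plus fulvestrant, where 462 and 801 of all 305574 did. Without E2 replicate 1 and fulvestrant replicate 2 together, separating regions numbered 14 and 29 of 669, where 3449 and 7421 of all 228284 regions were. Members with E2 above vehicle were then 10, where 19.2% of all genes were. The gene body alone gave 2 and 3 members without overlap (4.43% and 8.33% of all genes), and 50 kb on each side gave 9 for E2 above vehicle (18.6%). The causes were not tested.

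In peaks per gene, the deviations of same-numbered libraries from their treatment means had a median correlation of 0.013 over 18 pairs. Above 0.1 stood 3 of these pairs, and 5 of 36 pairs of unlike number. In strength of shared regions the median was 0.027, with 5 of 18 and 6 of 36 pairs above 0.1. Deviations from a mean of 3 libraries offset each other, so a median near 0 cannot settle pairing. Replicate numbers were not taken as pairing, and the replicate block called 0 members and 0 member regions in every contrast. The study's methods list a removal of batch effects for its ChIP-Seq data. Median centring and strength as −log10 p also called 0 member regions. Unknown read depth and 3 libraries per treatment limit what could be detected: an exact test on 3 against 3 cannot go below 0.1.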
